A study of Mus musculus with 9 samples.

Results

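The 10 genes described here are grouped as secreted antagonists of Wnt signalling, and were followed by RNA-seq through osteoblast differentiation of mouse calvarial cells. They are Dkk1, Dkk2, Dkk3, Sfrp1, Sfrp2, Sfrp4, Wif1, Frzb, Sostdc1 and Notum, chosen by name from the 40548 genes of the tables, and Sost was not among them. All 10 had reads and passed the filter on low values, among 12712 genes tested. The cells were primary cultures from the calvaria of pups of the strain C57BL/6 by the labels and C57BL/6J by the methods, given as postnatal day 2 to 3 in the labels, which name no transgene. Day 0 cells were confluent and undifferentiated, whereas day 4 and day 7 cells had received β-glycerol phosphate and ascorbic acid for 4 or 7 days. There were 3 biological replicates a stage, and whether pups were pooled for a replicate is not given in the sources used here. Per the labels, mineralized cells were released with collagenase I before trypsin and non-mineralized cells with trypsin alone, so the release of the cells and the stage cannot be told apart.

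Wnt proteins signal by binding a frizzled receptor together with the co-receptor Lrp5 or Lrp6, after which β-catenin is stabilized and drives transcription with the Tcf/Lef factors. Secreted antagonists act outside the cell at either side of that contact. The secreted frizzled-related proteins (Sfrp1, Sfrp2, Sfrp4 and Frzb) and Wif1 bind Wnt proteins, Dkk1 and Dkk2 bind the co-receptors Lrp5 and Lrp6, Sostdc1 binds Lrp co-receptors and bone morphogenetic proteins, and Notum is an enzyme that removes the lipid which Wnt proteins need for binding. Dkk3 is a divergent relative of the Dkk proteins with no settled place in the pathway. In bone, Wnt signalling promotes the formation of osteoblasts, and loss of antagonists such as Dkk1 raises bone mass.

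Day 0 libraries held 7741204 to 14013219 reads on genes, day 4 libraries 32820610 to 37306090 and day 7 libraries 10675858 to 15622755. The gene model Gm42418 took 11.96% of the reads of day 0 replicate 3 and 8.12% of day 7 replicate 2, and Plekhh2 took 7.95% of day 7 replicate 3, so every other CPM of these libraries is lowered by its share. Of 11 osteoblast markers 10 rose by day 7, where 12.6% of all genes tested rose and 18.6% fell. Runx2 did not pass the test (log2 fold change 0.23, adjusted p = 0.268, limma on the CPM as deposited). The paper, from a heatmap of the same stages, lists Runx2 among markers induced at day 4 and higher again at day 7. All 10 macrophage markers also rose, and their summed level was 49.9 to 83.8 RPKM at day 0, then 98.6 to 109 at day 4 and 104 to 135 at day 7. Of the 4 osteoclast markers tested, Acp5, Ctsk and Atp6v0d2 rose and Mmp9 fell, with summed levels over all 8 osteoclast markers of 102 to 134, 237 to 244 and 234 to 244 RPKM. Of 9 chondrocyte markers tested 3 rose and 3 fell, and the summed list overlapped between stages (181 to 509, 149 to 251 and 204 to 330 RPKM). Of 5 tendon and ligament markers 1 rose and 3 fell, and their sums overlapped too (346 to 391, 357 to 426 and 266 to 383 RPKM). Endothelial markers summed to at most 1.79 RPKM in any library, with Emcn and Tie1 at 0, adipocyte markers to at most 3.30, with Cidec and Lep at 0, and skeletal muscle markers to at most 10.4, and of these lists only Esam and Acta1 were tested, and both rose. The part that these other cells have in the levels below was not tested, and in these bulk samples fewer cells of a type and less RNA per cell cannot be told apart.

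The summed level of the 10 antagonists overlapped between the 3 stages, while its makeup differed. RPKM, reads scaled to the length of the gene model and to the depth of the library, are used for all levels here, as mean ± SD of 3 libraries where an error is given. The sum was 285, 390 and 298 RPKM in the 3 day 0 libraries, 371, 275 and 308 at day 4 and 336, 294 and 277 at day 7, and these ranges overlap. Sfrp2 and Dkk3 together made up 93.0% ± 0.832 of the sum at day 0, then 68.5% ± 3.23 at day 4 and 60.2% ± 3.51 at day 7. In this joint share no library of one stage overlapped another stage. Taken singly, Dkk3 made up 46.2%, 38.3% and 38.4% at days 0, 4 and 7, and its stages overlapped. Sfrp2 made up 46.8%, 30.2% and 21.8%, and its day 0 and day 4 libraries overlapped. The other 8 genes summed to 22.6 ± 3.73 RPKM at day 0, then 99.2 ± 5.54 at day 4 and 120 ± 17.2 at day 7, and this grouping was chosen after the values were seen. At day 7 the largest contributors beside Dkk3 (38.4%) and Sfrp2 (21.8%) were Wif1 with 14.1%, Dkk1 with 8.69%, Frzb with 5.35% and Sfrp4 with 5.34%.

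**Figure D1:**
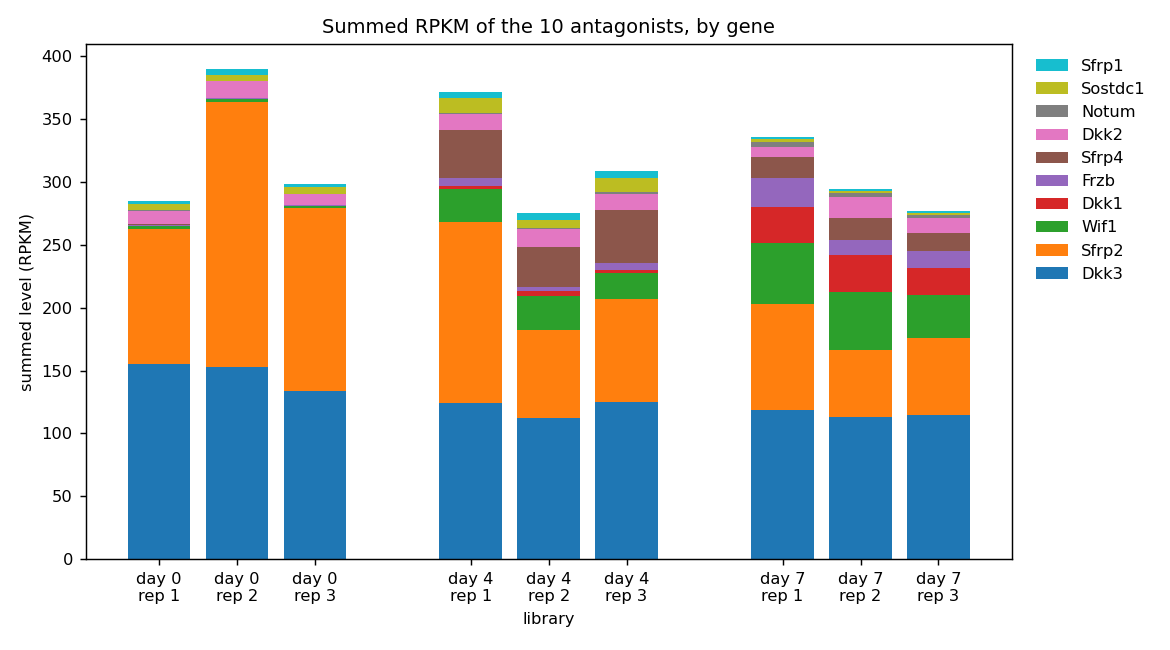
Summed level (RPKM, vertical axis) of the 10 antagonists in each of the 9 libraries (bars), with a colour for each gene. Bar heights overlap between stages, from 275 to 390 RPKM, while Sfrp2 and Dkk3 at the base go from 93.0% of the bar at day 0 to 60.2% at day 7.

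Day 7 was compared with day 0 to ask how the antagonists change as the cultures differentiate. Of the 10 genes, 5 rose (Dkk1, Frzb, Sfrp4, Wif1 and Notum), against 12.6% of all genes tested, and 3 fell (Sostdc1, Sfrp2 and Sfrp1), against 18.6% of all genes (limma on log2(CPM + 0.5), CPM being reads scaled to the depth of the library alone, with an adjusted p of 0.05 as the threshold). Dkk2 and Dkk3 did not pass. The median log2 fold change of the 10 was 1.27, beside -0.11 for all genes tested. It is the midpoint between Dkk2 (0.16) and Notum (2.37), so no gene lay near it. The day 7 libraries lay wholly above day 0 for 5 of the genes (16.9% of all genes) and wholly below for 4 (25.4% of all genes), the latter including Dkk3, and only Dkk2 overlapped. With 3 libraries against 3, the exact two-sided permutation test cannot go below 0.1, and it gave 0.1 for each gene except Dkk2, at 0.7.

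**Figure D2:**
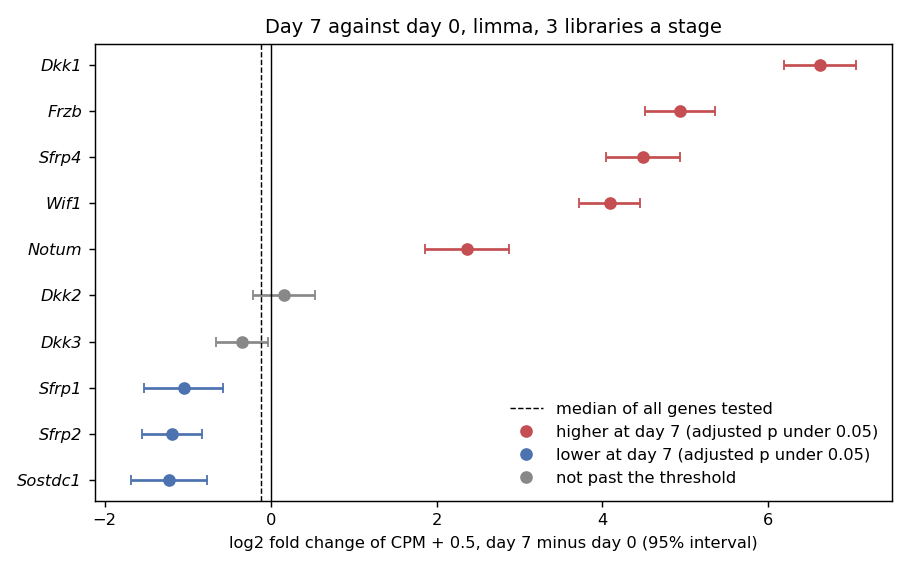
Log2 fold change of CPM + 0.5 from day 0 to day 7 (horizontal axis) for each antagonist, with the 95% interval from limma, 3 libraries a stage, and the dashed line at the median of all genes tested. Points run from 6.62 for Dkk1 down to -1.23 for Sostdc1, and 2 genes, Dkk2 and Dkk3, did not pass the threshold.

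The bases ahead of the genes are shown for 4 members, Dkk1 and Wif1 among those that rose, Sfrp2 among those that fell, and Dkk2, so that the sequence can be read beside the levels. They are RefSeq promoter windows on GRCm38.p6, shortened to the bases ahead of both the RefSeq and the GENCODE start, 5′ to 3′ on the strand of the gene, with capitals on the motifs searched (TATAAA for the TATA box, CTTTGAA and CTTTGAT for Tcf/Lef, TGTGGT for Runx, each on both strands). They lie at chr19:30549666-30549746 on the minus strand for Dkk1, and on the plus strand at chr10:121033754-121033959 for Wif1, chr3:132085042-132085291 for Dkk2 and chr3:83766071-83766320 for Sfrp2.
Dkk1: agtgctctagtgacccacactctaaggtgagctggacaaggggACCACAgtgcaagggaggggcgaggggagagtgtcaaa
Wif1: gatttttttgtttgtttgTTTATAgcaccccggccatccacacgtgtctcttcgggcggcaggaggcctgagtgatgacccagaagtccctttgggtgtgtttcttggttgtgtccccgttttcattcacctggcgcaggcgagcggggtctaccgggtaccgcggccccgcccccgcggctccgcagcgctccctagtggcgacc
Dkk2: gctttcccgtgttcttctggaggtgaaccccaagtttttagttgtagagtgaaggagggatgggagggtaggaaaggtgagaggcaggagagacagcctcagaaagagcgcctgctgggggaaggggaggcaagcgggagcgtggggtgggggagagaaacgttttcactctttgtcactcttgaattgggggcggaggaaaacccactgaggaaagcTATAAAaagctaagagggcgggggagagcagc
Sfrp2: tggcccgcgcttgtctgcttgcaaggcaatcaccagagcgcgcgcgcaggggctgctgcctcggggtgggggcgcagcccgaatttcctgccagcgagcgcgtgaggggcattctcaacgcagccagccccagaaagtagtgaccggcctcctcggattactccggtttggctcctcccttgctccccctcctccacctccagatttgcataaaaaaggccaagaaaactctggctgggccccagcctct
Further into the Dkk1 window, at chr19:30549595-30549624 and past the GENCODE start, stood the only Tcf/Lef letters found in a member.
Dkk1 at the Tcf/Lef letters: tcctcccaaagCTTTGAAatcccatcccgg

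Of the 10 genes 5 had a window in the RefSeq table, the fifth being Frzb. Over 32851 windows of this length, TATAAA was present in 13.6%, CTTTGAA in 5.14%, CTTTGAT in 3.73% and TGTGGT in 16.8%. The Dkk1 window held TATAAA at -54, CTTTGAA at -117 and ACCACA, the reverse complement of TGTGGT, at -207, counted from the RefSeq start to the first base of the motif. Of these, the TATAAA and the CTTTGAA lay past the GENCODE start. Dkk2 held TATAAA at -32 and Wif1 held it on the other strand at -232, while the windows of Frzb and Sfrp2 held none of these letters. A match is a run of letters and was not tested as a binding site.

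Among the Dkk genes, Dkk1 went from near absence to a high level. Dkk1 (ENSMUSG00000024868, GRCm38 chr19:30545863-30549665, minus strand) had 0.0882, 0 and 0.106 RPKM at day 0, from 3, 0 and 2 reads. It had 2.57, 3.65 and 2.78 RPKM at day 4 and 28.5, 29.1 and 21.2 at day 7, so the 3 stages did not overlap. Its day 0 libraries were at or under a floor of 3 reads per library. Against that floor the mean CPM of Dkk1 was 25.6-fold higher at day 4 and 225-fold higher at day 7. The fitted log2 fold change at day 7, which at this level depends on the pseudocount, was 6.62 (SE 0.22, 95% interval 6.18 to 7.06, adjusted p = 1.64e-29, limma). By mean RPKM it moved from rank 18245 among all genes at day 0 to rank 8922 at day 4 and 1841 at day 7.

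Dkk2 and Dkk3 were present from the start. Dkk2 (ENSMUSG00000028031, chr3:132085292-132180304, plus strand) had 10.7, 12.8 and 8.67 RPKM at day 0, 12.3, 13.8 and 13.4 at day 4 and 8.26, 16.7 and 12.1 at day 7. The stages overlapped, and the log2 fold change from day 0 to day 7 was 0.16 with a 95% interval of -0.21 to 0.53 (adjusted p = 0.556). Dkk3 (ENSMUSG00000030772, chr7:112116017-112159057, minus strand) had 155, 153 and 133 RPKM at day 0, 125, 112 and 125 at day 4 and 119, 113 and 115 at day 7. Every day 4 and day 7 library was below every day 0 library, yet the log2 fold change of -0.35 (95% interval -0.66 to -0.04) missed the threshold (adjusted p = 0.0822). It passed without day 0 replicate 3 (-0.42, adjusted p = 0.00247, limma). That fit called 4696 of 12712 genes lower, against 2369 with all libraries, and its median over all genes was -0.23. Dkk3 also passed after rescaling, by voomWithQualityWeights (-0.22, adjusted p = 0.0201), DESeq2 (-0.24, adjusted p = 0.0141), edgeR (-0.24, adjusted p = 0.0437) and limma on median-of-ratios scaling (-0.24, adjusted p = 0.0305). These 4 fits called 4 antagonists lower, against 23.4%, 18.3%, 20.8% and 20.5% of all genes in that order, and 5 higher, against 24.8%, 20.3%, 22.2% and 22.4%.

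**Figure D3:**
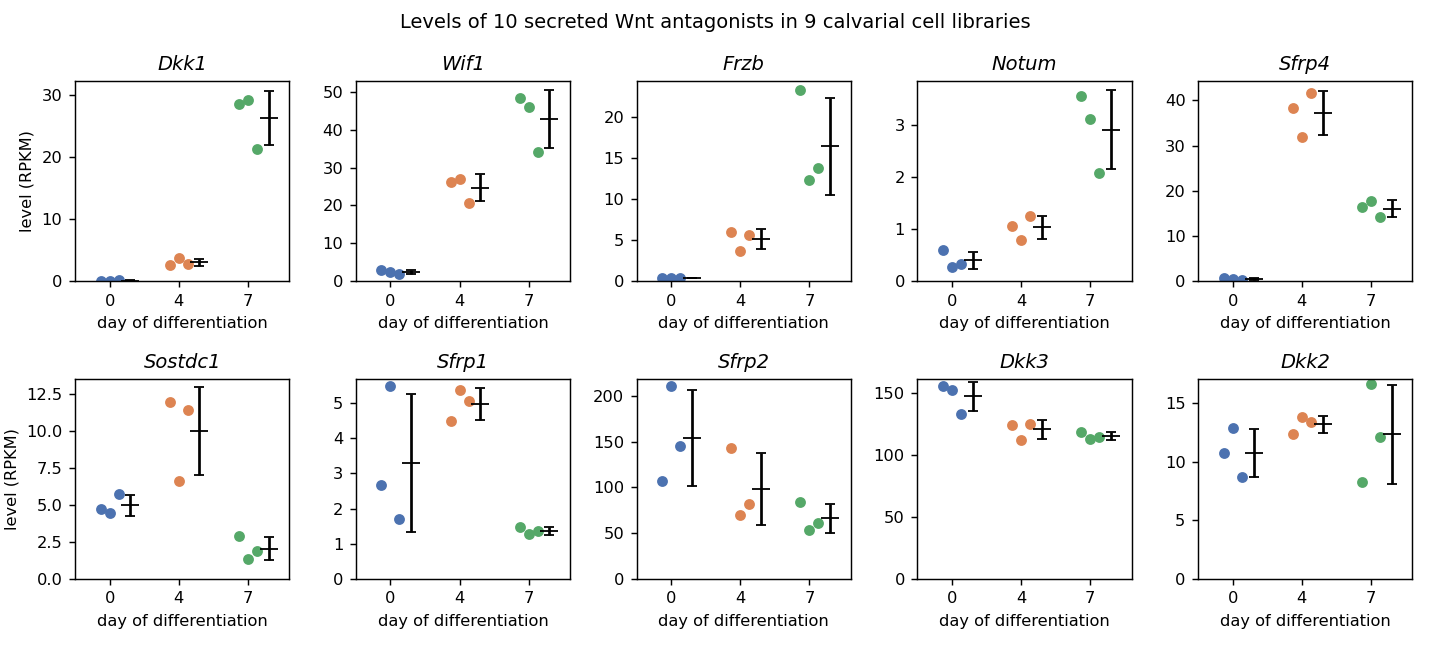
Level in RPKM (vertical axes, each with its own range starting at 0) of the 10 antagonists by day of differentiation, with a point for each library and bars for the mean ± SD of 3. Dkk1, Wif1, Frzb and Notum are highest at day 7, Sfrp4 and Sostdc1 at day 4, and Dkk3 at day 0. The mean of Sfrp2 is also highest at day 0, where its libraries overlap those of day 4. The means of Sfrp1 and Dkk2 are highest at day 4, where their libraries overlap those of day 0.

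The secreted frizzled-related genes split in direction. Sfrp4 and Frzb rose from under 1 RPKM, whereas Sfrp1 and Sfrp2 fell. Sfrp4 (ENSMUSG00000021319, chr13:19623104-19632994, plus strand) had 0.650, 0.524 and 0.221 RPKM at day 0, from 16, 11 and 3 reads. It had 38.4, 31.9 and 41.5 RPKM at day 4 and 16.3, 17.8 and 14.1 at day 7. It was thus highest at day 4, 80.2-fold above day 0 and 2.32-fold above day 7 by mean RPKM, with no overlap between stages. At day 7 it was still above day 0, by 4.49 on the log2 scale (SE 0.22, adjusted p = 3.52e-22). Frzb (ENSMUSG00000027004, chr2:80411970-80447625, minus strand), also known as Sfrp3, had 0.330, 0.413 and 0.359 RPKM at day 0, 6.04, 3.70 and 5.64 at day 4 and 23.2, 12.3 and 13.8 at day 7. Unlike Sfrp4, Frzb had every library above all those of the stage before, and the log2 fold change at day 7 was 4.93 (SE 0.21, adjusted p = 6.30e-25).

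Sfrp2 (ENSMUSG00000027996, chr3:83766321-83774316, plus strand) was the antagonist with the highest mean level at day 0, 217th among all genes. It had 107, 211 and 146 RPKM at day 0, 144, 70.1 and 81.9 at day 4 and 84.2, 53.6 and 61.4 at day 7. Day 4 overlapped both other stages, and the day 7 libraries were all below day 0. The log2 fold change was -1.19 (SE 0.18, adjusted p = 6.30e-07), and 2.33-fold separated the mean RPKM of day 0 and day 7. The antisense gene Gm26771 at this locus had 1 to 21 reads a library, against 1233 or more for Sfrp2. Sfrp1 (ENSMUSG00000031548, chr8:23411502-23449632, plus strand) had 2.68, 5.49 and 1.71 RPKM at day 0, 4.50, 5.39 and 5.06 at day 4 and 1.47, 1.26 and 1.36 at day 7. Day 0 varied widely, day 4 lay within its range, and day 7 was below both. Its log2 fold change was -1.05 (SE 0.24, adjusted p = 4.74e-04), and without day 0 replicate 2 it was -0.61 (adjusted p = 0.0476).

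Wif1 (ENSMUSG00000020218, chr10:121033960-121100650, plus strand), the Wnt inhibitory factor, came to the highest level of the genes that rose. It had 2.91, 2.38 and 1.76 RPKM at day 0, 26.3, 27.0 and 20.5 at day 4 and 48.4, 46.1 and 34.2 at day 7. The 3 stages did not overlap, and its mean RPKM was 10.5-fold above day 0 at day 4 and 18.3-fold above it at day 7. The log2 fold change at day 7 was 4.09 (SE 0.18, adjusted p = 3.32e-24), and its rank among all genes went from 9531 at day 0 to 2015 and then 1070.

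Sostdc1 and Notum act at the co-receptor and on the Wnt protein itself, and they differed in time course. Sostdc1 (ENSMUSG00000036169, chr12:36314139-36318452, plus strand) had 4.68, 4.44 and 5.75 RPKM at day 0, 12.0, 6.59 and 11.4 at day 4 and 2.88, 1.34 and 1.86 at day 7. All day 4 libraries were above day 0 and all day 7 libraries below it, so the mean was 2.01-fold higher at day 4 than at day 0 and 4.92-fold higher at day 4 than at day 7. The fall from day 0 to day 7 was -1.23 on the log2 scale (SE 0.23, adjusted p = 2.38e-05). Notum (ENSMUSG00000042988, chr11:120653788-120661175, minus strand) had 0.592, 0.278 and 0.322 RPKM at day 0, from 20, 8 and 6 reads, 1.06, 0.790 and 1.24 at day 4, and 3.56, 3.11 and 2.07 at day 7. Its stages did not overlap, and the log2 fold change at day 7 was 2.37 (SE 0.25, adjusted p = 8.52e-11) at the lowest mean level of the genes that rose, 2.91 ± 0.761 RPKM. Of the antisense genes at this locus, Notumos had 0 to 10 reads a library and Myadml2os 0 to 2.

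Step by step, the time courses fell into different shapes. Day 4 libraries come from tables of their own and from deeper libraries, so the steps that involve day 4 have no test and are described by direction and overlap. From day 0 to day 4, 6 of the 10 genes were higher in every day 4 library (Dkk1, Sfrp4, Wif1, Frzb, Sostdc1 and Notum), against 21.6% of 12782 genes, and 1 (Dkk3) was lower in every one, against 21.9%. From day 4 to day 7, 4 were higher in every day 7 library (Dkk1, Wif1, Frzb and Notum), against 13.6%, and 3 were lower (Sfrp1, Sfrp4 and Sostdc1), against 25.0%. Dkk1, Wif1, Frzb and Notum were therefore higher at each step, whereas Sfrp4 and Sostdc1 were higher at day 4 than at either end. On the scale of log2(mean RPKM + 0.1), the first step exceeded the second for Wif1 (3.34 and 0.80), Frzb (3.48 and 1.66) and Dkk1 (4.23 and 3.09), and for Notum the values were 1.19 and 1.41. Leaving out each library in turn turned the direction of 1 of these 20 steps, Dkk2 from day 4 to day 7, which was -0.839 RPKM with all libraries and 1.20 RPKM without day 7 replicate 1.

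**Figure D4:**
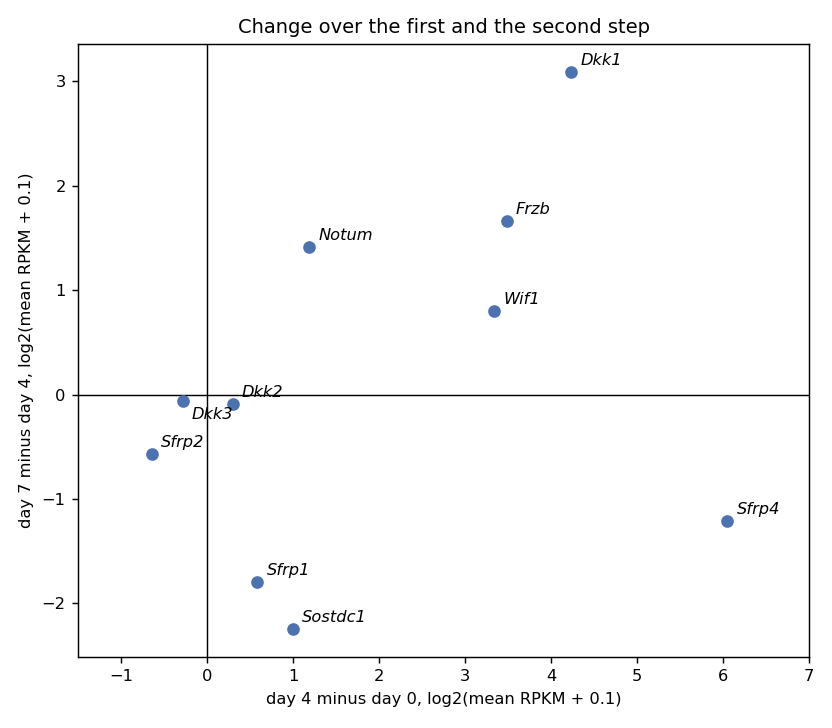
Difference in log2(mean RPKM + 0.1) from day 0 to day 4 (horizontal axis) and from day 4 to day 7 (vertical axis), with a point for each antagonist. Dkk1, Frzb, Wif1 and Notum lie above 0 on both axes and Sfrp4, Sostdc1, Sfrp1 and Dkk2 lie above 0 at the first step only, and both axes use the day 4 means.

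The order of levels changed with the stage. At day 0, Sfrp2 (154 ± 52.6 RPKM) and Dkk3 (147 ± 12.0) overlapped at the top, followed without overlap by Dkk2 (10.7 ± 2.08), then Sostdc1, Sfrp1 and Wif1, whose neighbours overlapped, then Sfrp4, Notum and Frzb, which overlapped too, and Dkk1 last. At day 4, Dkk3 and Sfrp2 still overlapped, and Sfrp4 (37.3 ± 4.90), Wif1 (24.6 ± 3.57) and Dkk2 (13.2 ± 0.757) followed, each apart from the next. Below them came Sostdc1 (9.98 ± 2.95), then Frzb and Sfrp1, which overlapped, then Dkk1 and Notum. At day 7, Dkk3 (115 ± 3.12), Sfrp2 (66.4 ± 15.9), Wif1 (42.9 ± 7.63) and Dkk1 (26.3 ± 4.38) were each apart from the next, except that Dkk1 overlapped Frzb (16.4 ± 5.94), and Frzb, Sfrp4 and Dkk2 did not differ beyond their spread. Notum, Sostdc1 and Sfrp1 were lowest at day 7, and each overlapped the next. Dkk1 thus went from the lowest of the 10 to the fourth.

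Genes with the most similar course to the largest rise and the largest fall were sought among 9100 genes over the 9 libraries by Pearson's r of log2(RPKM + 0.1). The points share libraries and fall into 3 stages, so the values are a description without a test. Closest to Dkk1 were B4galnt3, a glycosyltransferase (r = 0.994), Slc36a2, an amino acid transporter (0.994), and Slc13a5, a citrate transporter (0.990), and 109 genes exceeded 0.95. Slc13a5 stood at 4.25, 31.2 and 95.2 RPKM at days 0, 4 and 7. Closest to Sostdc1 were Spry2, a feedback inhibitor of growth factor signalling (0.983), the gelatinase Mmp2 (0.982) and Egr1, an immediate early transcription factor (0.968), and 16 genes exceeded 0.95. Egr1 stood at 6.98, 17.2 and 3.90 RPKM, also with its highest level at day 4. Pearson's r does not measure the size of a change. Spry2 stood at 7.60, 9.49 and 5.27 RPKM and Mmp2 at 327, 381 and 284, smaller changes in proportion than those of Sostdc1.

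Among cell-surface partners of the antagonists, Lrp4, Lrp5, Lrp6 and Kremen1 had log2 fold changes between -0.58 and 0.59. Of the co-receptors, Lrp6 fell from 27.2 ± 2.73 RPKM at day 0 to 18.1 ± 1.20 at day 7 (log2 fold change -0.58, adjusted p = 0.00233). Lrp5 (10.6 and 13.6 RPKM, log2 fold change 0.36, adjusted p = 0.0721) and Lrp4, which binds Sostdc1 (10.9 and 13.4 RPKM, 0.29, adjusted p = 0.149), did not pass. Both passed in the 4 rescaled fits (median-of-ratios, voomWithQualityWeights, edgeR, DESeq2), and Lrp5 also without day 0 replicate 3 (0.40, adjusted p = 0.0205). Kremen1, a receptor for Dkk1 that helps to remove Lrp6 from the cell surface, rose from 17.4 ± 1.83 to 26.3 ± 1.95 RPKM (0.59, adjusted p = 0.00195) and was highest at day 4 (35.5 RPKM). Kremen2 was under the filter, with at most 0.0674 RPKM in a library. Axin2, the usual readout of β-catenin activity, had 1.62 ± 0.223, 2.44 ± 0.570 and 2.10 ± 0.182 RPKM at days 0, 4 and 7 and did not pass (0.36, adjusted p = 0.151), although its day 7 libraries were all above day 0, and it passed in the 4 rescaled fits (0.47 to 0.49, adjusted p = 0.00704 to 0.0266). Lef1 stood at 0.347, 0.555 and 0.254 RPKM and did not pass (-0.37, adjusted p = 0.26).

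The wider pathway was described by lists of its parts, and beside their counts stand the 12.6% of all genes tested that rose and the 18.6% that fell. Of 19 Wnt ligands 11 were tested, 8 rose and 2 fell (median log2 fold change 0.79, all genes -0.11), and the fallen share was near that of all genes. The largest rise was Wnt7b, from 0.237 to 3.52 RPKM (3.37, adjusted p = 3.84e-17), and the largest fall was Wnt2, from 1.75 to 0.509 RPKM (-1.46, adjusted p = 1.12e-05). Leaving out day 0 replicate 1 brought the ligands that rose to 5, with 1602 of 12712 genes higher, as with all libraries. Leaving out day 7 replicate 1 brought them to 4, with 1174 genes higher. With the filter at a mean CPM of 5, 4 ligands were higher and 1 lower, beside 1247 and 2044 of 10446 genes. Some ligands that rose had few reads, such as Wnt4 with 17, 2 and 1 reads at day 0. Of 17 receptors and co-receptors tested of 18, 2 rose and 7 fell (median -0.23), and the share that rose was near the 12.6% of all genes. Fzd10 fell most (1.21 to 0.310 RPKM, -1.54, adjusted p = 2.41e-06) and Fzd5 rose most (20.3 to 30.9 RPKM, 0.60, adjusted p = 0.00214), though without day 7 replicate 1 Fzd5 was at 0.48 with an adjusted p of 0.0513, which left 1 receptor higher. The receptor counts depended on the scaling, with 7 rather than 2 higher under the 4 rescaled fits. In those fits 20.3% to 24.8% of all genes were higher. Without day 7 replicate 3 the receptors that were lower numbered 4 rather than 7, and over all genes 1670 rather than 2369 were lower.

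Of 25 other extracellular modulators 19 were tested, of which 4 rose and 11 fell (median -0.58), against 12.6% and 18.6% of all genes. Those that rose were Lgr6, Rnf43, Gpc1 and Porcn. Those that fell were Draxin, Trabd2b, Rspo1, Rspo2, Rspo3, Lgr5, Wls, Gpc2, Gpc3, Gpc4 and Gpc6. Rspo3, a secreted agonist that protects frizzled receptors from removal, fell from 17.1 ± 4.13 RPKM at day 0 to 4.60 ± 0.627 at day 4 and 2.44 ± 0.604 at day 7 (-2.70, adjusted p = 2.75e-16), and Rspo1 and Rspo2 fell as well. Rnf43, the membrane ubiquitin ligase that R-spondins hold back, rose from 0.0417 to 1.18 RPKM (3.43, adjusted p = 5.64e-16). With 1 to 5 reads a library at day 0, its log2 fold change depended on the setting, from 1.63 with the RPKM table to 4.87 with DESeq2. Of 13 β-catenin target and feedback genes tested of 14, 4 rose (Tcf7, Nkd2, Myc and Bambi) and 2 fell (Nkd1 and Tcf7l1). The median log2 fold change of the 13 was 0.25, and the share that fell was near the 18.6% of all genes. Tcf7, a β-catenin partner, rose from 0.474 to 2.90 and 8.31 RPKM (3.68, adjusted p = 5.79e-19), and Tcf7l1, its mostly repressive relative, fell from 1.95 to 0.900 RPKM (-1.01, adjusted p = 2.14e-04). The count of targets that rose was 7 to 8 with the 4 rescaled fits, against 20.3% to 24.8% of all genes. The count that fell was 3 in each of them, against 18.3% to 23.4% of all genes. Among the tested genes of the 5 lists, Dkk1 had the largest rise and Rspo3 the largest fall.

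**Figure D5:**
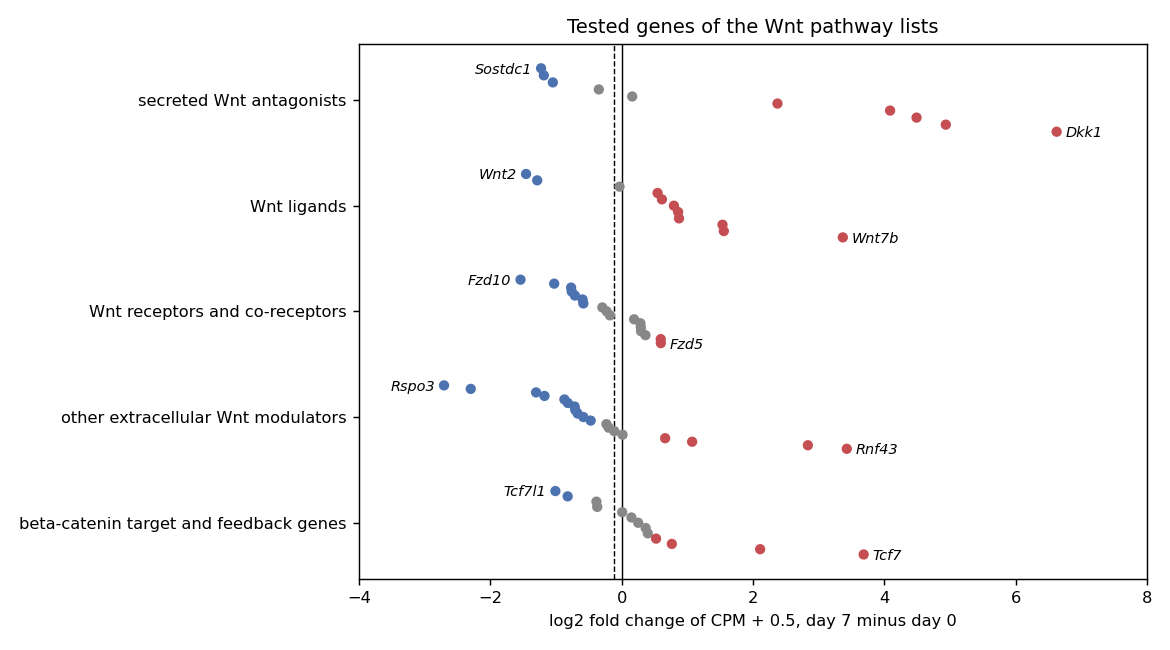
Log2 fold change of CPM + 0.5 from day 0 to day 7 (horizontal axis) for the tested genes of the 5 Wnt pathway lists, red where higher and blue where lower at an adjusted p under 0.05, grey otherwise, with the dashed line at the median of all genes tested (-0.11). The antagonists run from -1.23 to 6.62, and the labelled genes are the largest rise and fall of each list.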

How the data were processed

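RNA was isolated from 3 cultures at each of 3 stages, and ribosomal RNA was depleted per the labels. The authors used STAR 2.0.4b and the Ensembl release 76 assembly (GRCm38), and took gene counts from unambiguous unique alignments by featureCounts (version 1.45 per the submitters' processing notes). The strand setting is not given in the sources used here, so reads of overlapping antisense genes cannot be told apart. The authors deposited CPM and RPKM per gene, in 1 pair of tables for days 0 and 7 and another for day 4. All 18 columns of values matched a sample.

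Whole reads were recovered from the CPM: 100% of values were whole multiples of 1 read, within a relative tolerance of 1e-05. No 2 replicates agreed within counting noise (11.7 to 203 for chi-square over its degrees of freedom). The test of day 7 against day 0 was limma (3.58.1, under R 4.3.3) with the trend option, run on log2(CPM + 0.5) where the mean CPM reached 1, and p-values were adjusted by Benjamini-Hochberg over all 12712. A further 11075 genes with reads were left out. The scale understates the change of low genes, and the prior had 42.9 degrees of freedom against 4 residual ones. edgeR 4.0.16 and DESeq2 1.42.0 on recovered reads were among the alternatives. Single members also had an exact permutation test. The floor of 3 reads was a set value, which Dkk1 reached in day 0 replicate 1. It is therefore not an upper bound on counting error, and it does not cover differences between cultures.

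All 10 antagonists are named, and of the other lists the called genes with the largest rise and fall, the binding partners and readouts, and the 3 genes most like the largest rise and the largest fall in course. Other named genes were chosen after their values were seen. Members and lists were chosen with earlier results of these data known. Coordinates come from GENCODE M21 and the promoter windows from RefSeq. The symbols Ccn4 and Snorc were matched through synonyms.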

Additional observations from a re-analysis of the deposited data

How the results depend on the processing

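The fit was repeated under 17 alternatives: a pseudocount of 0.1 or 1, no filter or a filter at a mean CPM of 5, median-of-ratios scaling, the RPKM table, edgeR, DESeq2, voomWithQualityWeights, robust variances, a replicate block, and each of the 6 libraries left out. The 8 antagonists past the threshold kept their direction and their call in all of them, except that Notum was under the filter at a mean CPM of 5, which left 4 higher. Dkk3 passed under 5 alternatives, which made 4 lower. Leaving out 1 library gave Dkk2 log2 fold changes from -0.083 (without day 7 replicate 2, a reversed sign) to 0.42 (without day 7 replicate 1), and the cause was not tested.

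Over all genes, the number higher was 2843 with median-of-ratios scaling, 2818 with edgeR, 2581 with DESeq2 and 3148 with voomWithQualityWeights, against 1602 as deposited, and the share of calls that were higher was 52.1% with median-of-ratios scaling against 40.3%. All 4 moved the median of all genes from -0.11 to between -0.0121 and -0.0067. The number lower ranged from 1527 to 4696 when 1 library was left out (1527 without day 0 replicate 2, 4696 without day 0 replicate 3, 1548 without day 7 replicate 2), against 2369.

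Day 0 and day 7 share replicate numbers, but their same-numbered libraries did not deviate together (correlations of -0.017, -0.18 and -0.44), none of these 6 libraries correlated best with its own number, and so they were taken to share only a number. Day 4 was not part of this check. With the replicate number as a block, 1463 genes were higher and 1950 lower, and 5 antagonists were higher and 3 lower. Depth limits the day 0 values of Dkk1, Frzb, Sfrp4 and Notum, which rest on 0 to 20 reads a library.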
